A study of Homo sapiens with 23 samples.

Results

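The replication-dependent histone genes are the genes that supply the bulk of the histones used to package newly copied DNA. They were taken as every protein-coding symbol that starts with H2AC, H2BC, H3C or H4C, together with the linker histones H1-1 to H1-5. Of 69 such symbols, 62 had a row among the 21658 genes of the expression table, and 7 (H1-1, H2AC1, H2BC1, H2BC14, H4C6, H4C7 and H4C13) had none. The measured genes were 4 H1, 16 H2A, 17 H2B, 13 H3 and 12 H4 genes. By the GRCh37 annotation 47 of them lay in the large cluster at 6p22, 10 at 1q21, 2 at 1q42, 1 at 12p12 and 1 at 21q22, and H2AC18 could not be placed because its start matched more than 1 site.

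The libraries came from 4 established ovarian cancer cell lines, OV-90, Kuramochi, OVSAHO and EFO-21, each as the untreated parental line and as a prexasertib-resistant line. Prexasertib inhibits CHK1, a checkpoint kinase that restrains DNA replication origins and mitotic entry, and resistance was obtained by raising the drug concentration over a long period in culture. The labels name no other treatment or genetic change for any group, and whether a resistant line was a clone or a pool, or was held in drug at harvest, is not given in the sources used here. There were 23 libraries, 3 in each group except parental OV-90, which had 2, and values are log2 expression values quantile normalized by the authors.

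The core histones H2A, H2B, H3 and H4 form the nucleosome, and H1 binds the DNA between nucleosomes. Their replication-dependent genes are transcribed in S phase, mostly lack introns, and give mRNAs that normally end in a conserved stem-loop instead of a poly(A) tail. The stem-loop is bound by SLBP and cut with the help of the U7 snRNP, and the mRNAs are degraded rapidly when DNA synthesis stops. Some of these genes can also use a downstream poly(A) signal and give a longer polyadenylated transcript. The libraries were prepared with a kit that selects polyadenylated RNA, so the values are those of the RNA that passed this selection, and total histone mRNA was not measured.

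The stem-loop is shown here because it is the feature that defines the normal end of these mRNAs. A 16-base stem-loop with 6 paired bases on each side was found for 60 of the 62 measured genes on GRCh37. For 58 it lay within 150 bases after the annotated stop codon, and for H2BC7 and H2BC8, which had no annotated stop codon to measure from, it was found at the end of the gene span. H2AC18 could not be placed and was not searched, and no stem-loop was found for H2BC12L. The sequences below are written as DNA on the gene's strand, with the stem-loop in capitals and 5 bases on each side in lower case.
H2BC8: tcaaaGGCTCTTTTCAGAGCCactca
H4C2: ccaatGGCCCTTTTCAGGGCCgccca
H2BC4: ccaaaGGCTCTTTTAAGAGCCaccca
H2BC10: ccaaaGGCTCTTCTAAGAGCCaccca
H2AC15: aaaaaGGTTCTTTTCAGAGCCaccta
The form of H2BC8 (chr6:26216446-26216461) was the commonest, in 36 genes. The form of H4C2 (chr6:26027129-26027144) was found in 8 genes and that of H2BC4 (chr6:26123700-26123715) in 7. The forms of H2BC10 (chr6:26273620-26273635) and H2AC15 (chr6:27805663-27805678) occurred in 1 gene each.

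Many H2A and H2B genes are arranged head to head around a shared promoter. The promoter of H2BC8 is shown because H2BC8 and its neighbour H2AC8 carried some of the largest changes among the histone genes. The 42-base stretch begins 58 bases before the H2BC8 start (RefSeq, GRCh38.p14, chr6:26216705-26216746, minus strand), with the octamer ATTTGCAT and the TATA letters TATAAA in capitals.
H2BC8 promoter: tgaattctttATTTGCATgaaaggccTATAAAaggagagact
The same 42 bases lie, on the other strand, inside the promoter window of H2AC8. In windows from 250 bases before to 50 bases after the start, read on both strands, the octamer letters were found in 12 of 16 H2B and 10 of 15 H2A promoters. They were in 1 of 11 H3 promoters and in none of the 4 H1 and 10 H4 promoters, against 1.7% of 15843 protein-coding promoters. TATAAA was in 36 of 56 member promoters and in 9.63% of all promoters.

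A gene was called changed at a Benjamini-Hochberg adjusted p under 0.05 over all genes with a change of at least 2-fold, in limma fits of 1 cell line at a time. The direction of the histone changes differed between the lines. In resistant Kuramochi 23 of the 62 genes were called higher and none lower, with a median change of 0.80 (log2, resistant minus parental). Over all genes 11.8% were called higher and 10.6% lower in that line. In resistant EFO-21 24 were called higher and 1 lower (all genes, 7.11% and 7.15%), with a median change of 0.92.

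In the remaining lines the called genes were mainly lower. In resistant OV-90 16 were called lower and none higher (all genes, 6.56% and 9.5%), with a median change of -1.02. In resistant OVSAHO 13 were called lower and 1 higher (all genes, 3.83% and 3.93%), with a median change of -0.19. The median change over all genes lay between -0.06 and 0.01 in the 4 lines. At an unadjusted limma p under 0.05, 4 genes were lower in Kuramochi and 1 was higher in OV-90. Of the 62 genes 48 were called in at least 1 line, 12 in opposite directions in different lines, and none in the same direction in 3 lines. Leaving out 1 library moved the smaller counts: without parental OVSAHO library 7, 5 members were higher and 8 lower in OVSAHO, without libraries 8 or 21 3 were higher, and without library 9 2 were higher. In Kuramochi 1 member was lower without libraries 5 or 18 and 2 without library 6. The 1 lower call in EFO-21 was lost without libraries 11, 12, 22 or 23.

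**Figure D1:**
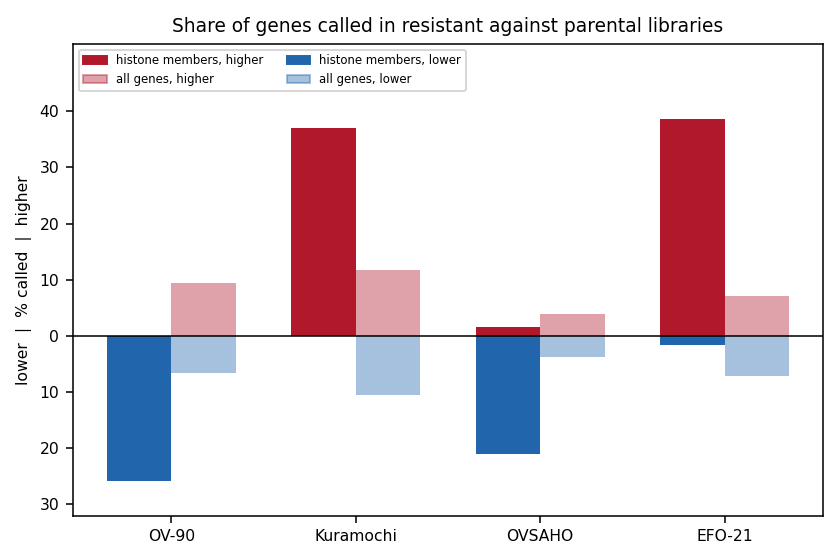
Share of the 62 histone genes (solid) and of all 21658 genes (pale) called higher (red, above 0) or lower (blue, below 0) in resistant against parental libraries of each line, in percent. The histone bars point up in Kuramochi and EFO-21 (23 and 24 genes) and down in OV-90 and OVSAHO (16 and 13 genes).

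**Figure D2:**
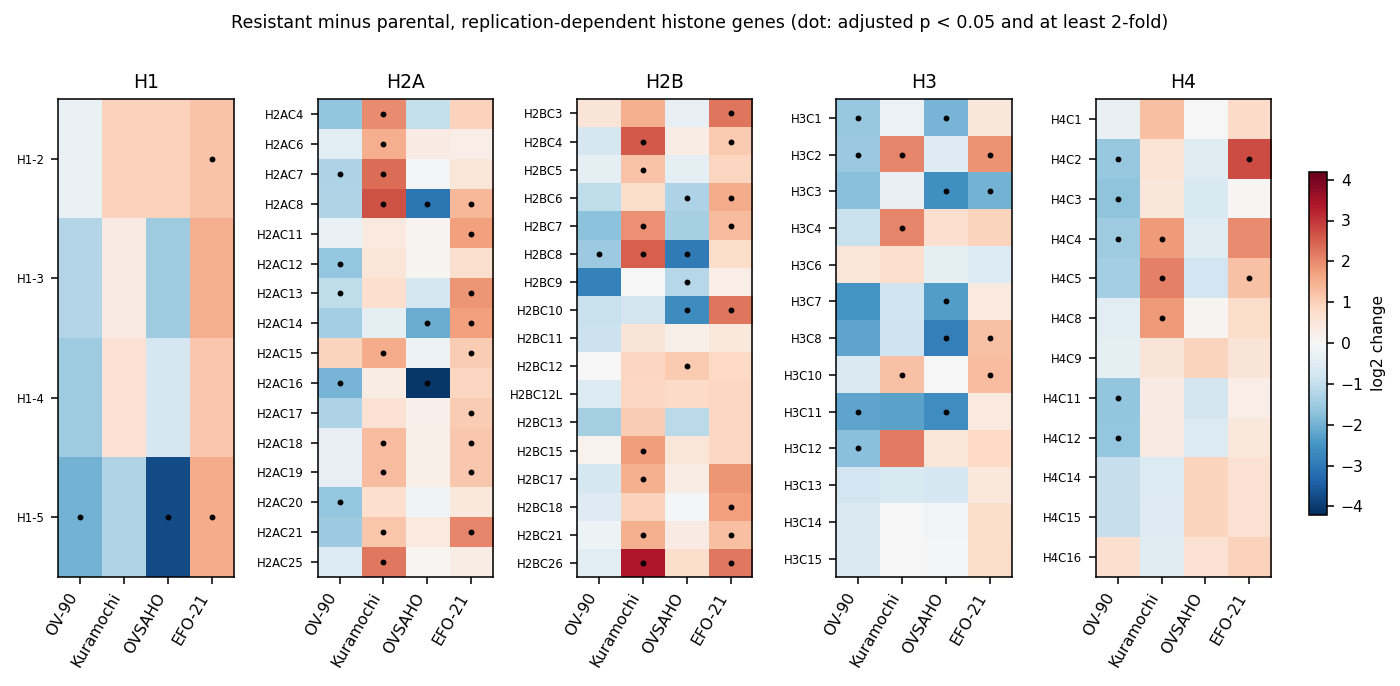
Log2 change (resistant minus parental) of each histone gene in each line, with red for higher and blue for lower and a dot for genes called at an adjusted p under 0.05 and at least 2-fold. The Kuramochi and EFO-21 columns are mostly red, the OV-90 column mostly blue, and OVSAHO holds its darkest blue at H2AC16 and H1-5.

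The libraries themselves limited some of these comparisons. The per-library median over the 62 genes was 6.57 and 5.75 in the parental OV-90 libraries numbered 2 and 3, and 4.77, 5.03 and 5.07 in resistant OV-90. Library 2 exceeded library 3 in 55 of the 62 genes, against 54.2% of all genes. With library 2 left out 6 histone genes were called lower in OV-90, and with library 3 left out 33 were. With any 1 resistant OV-90 library left out none was called, although 25 to 28 were lower at an unadjusted limma p under 0.05. The medians were 4.91, 5.29 and 5.75 in parental and 6.46, 6.08 and 6.29 in resistant Kuramochi, 5.12, 5.01 and 4.97 against 6.11, 5.95 and 6.03 in EFO-21, and 4.33, 4.63 and 4.28 against 4.05, 4.08 and 3.98 in OVSAHO.

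The lowest value shared by many rows, here called the floor, was 0.00 to 0.22 in the different libraries. A difference from a group at the floor is a difference of deposited values and not a measured fold. In resistant OVSAHO 7 to 10 of the 62 genes were at the floor, against 0 to 2 in parental OVSAHO. Of the 13 genes called lower in OVSAHO, 10 had at least 1 resistant library at the floor, and their parental means lay between 1.96 and 4.89. When the genes with the lowest 25% of mean values in the line were left out, all 13 were removed, 33 members were tested in OVSAHO, and H2BC13 was the 1 member called lower.

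H2BC8 and H2AC8 encode H2B and H2A and start 233 bases apart. H2BC8 had values of 7.24, 7.39 and 7.62 in parental Kuramochi and 9.91, 9.95 and 9.95 in resistant Kuramochi, a change of 2.52 ± 0.10 (log2 ± SE, limma adjusted p = 1.7e-05). The 3 resistant values were nearly equal and lay above every other H2BC8 value in the series. In OVSAHO it read 3.22, 3.28 and 2.45 in the parental libraries and 0.01, 0.02 and 0.02, the floor, in the resistant ones. In OV-90 it went from 7.41 and 6.47 to 5.30, 5.67 and 5.23 (-1.54 ± 0.33, limma adjusted p = 0.03).

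H2AC8 had changes of the same sign as its partner in all 4 lines. Its values were 6.26, 6.47 and 6.78 in parental and 9.16, 9.13 and 9.28 in resistant Kuramochi (2.69 ± 0.14, limma adjusted p = 3.9e-05). In EFO-21 they were 8.14, 8.29 and 8.16 against 9.46, 9.60 and 9.73 (1.40 ± 0.08, limma adjusted p = 8.3e-05). The OVSAHO values spread widely, from 5.02, 4.81 and 4.12 to 3.56, 0.02 and 1.30 (limma adjusted p = 0.045), and this call was kept only when resistant library 19 was the one left out, with adjusted p-values of 0.078 to 0.12 without parental libraries 7, 8 or 9 or resistant libraries 20 or 21.

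H2BC4 and H2BC12 are H2B genes with a longer transcript in the annotation. H2BC4 read 6.50, 7.0 and 6.88 in parental Kuramochi and 9.37, 9.38 and 9.37 in resistant Kuramochi (2.58 ± 0.13, limma adjusted p = 3.7e-05). It was also higher in resistant EFO-21, going from 6.21, 6.63 and 6.32 to 7.35, 7.55 and 7.51 (1.09 ± 0.12), a change that fell under 2-fold without parental library 10. The span of H2BC4 runs over H4C3 on the other strand. H2BC12 was the 1 member called higher in resistant OVSAHO, going from 9.01, 9.08 and 9.21 to 10.33, 10.15 and 10.13 (1.11 ± 0.08, limma adjusted p = 0.00039).

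**Figure D3:**
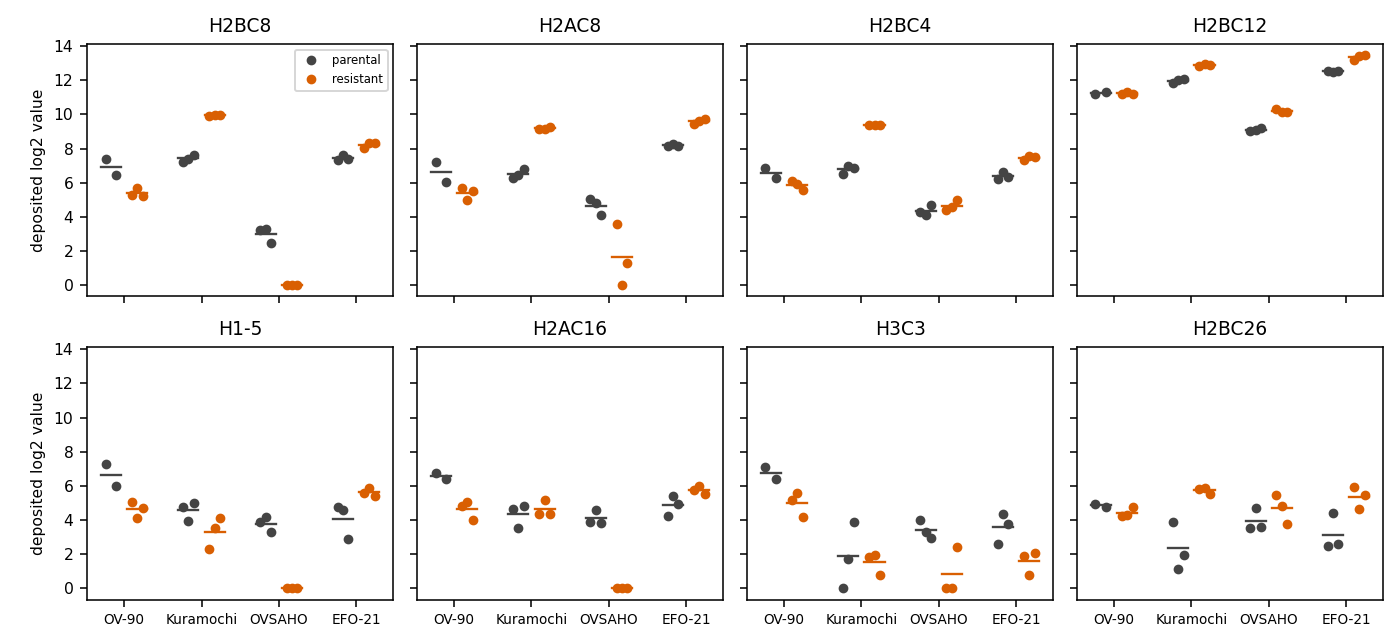
Deposited log2 values of 8 histone genes in every library, parental (grey) and resistant (orange), with a bar at each group mean. H2BC8, H2AC8 and H2BC4 stand highest in resistant Kuramochi or EFO-21, while H2BC8, H1-5 and H2AC16 lie at the floor in all 3 resistant OVSAHO libraries.

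H2BC26 and H2AC25 form the head-to-head pair at 1q42. H2BC26 read 3.89, 1.15 and 1.97 in parental and 5.81, 5.87 and 5.53 in resistant Kuramochi, the largest rise of any member (3.40 ± 0.67, limma adjusted p = 0.0074). In EFO-21 it read 2.45, 4.41 and 2.57 against 5.93, 4.64 and 5.48 (2.21 ± 0.62, limma adjusted p = 0.028), a call lost without parental libraries 10 or 12 or resistant libraries 22 or 24. H2AC25 rose in Kuramochi from 7.14, 7.60 and 7.52 to 9.63, 9.62 and 9.63 (2.21 ± 0.12, limma adjusted p = 5.3e-05). Its EFO-21 change of 0.30 was not called.

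The highest-valued H2A genes were H2AC18 and H2AC19, whose rows differed by at most 0.028 in any library. Reads of these near-identical copies cannot be told apart, so they are read as 1 measurement. H2AC18 went from 11.19, 11.20 and 11.20 to 12.54, 12.42 and 12.55 in Kuramochi and from 11.45, 11.35 and 11.51 to 12.54, 12.62 and 12.57 in EFO-21. These were changes of 1.31 ± 0.06 and 1.14 ± 0.05. H2BC21, an H2B gene at 1q21, changed by 1.48 ± 0.06 and 1.25 ± 0.08 in the same lines, with no overlap between groups. Every called member had groups without overlap in its line, so this adds nothing to a call.

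Further H2A and H2B genes were called higher in both Kuramochi and EFO-21. H2BC7 read 4.62, 4.67 and 5.14 against 6.81, 6.97 and 6.45 in Kuramochi, and 5.29, 4.57 and 4.48 against 6.39, 5.79 and 6.17 in EFO-21. H2AC15 read 4.87, 5.22 and 5.19 against 6.48, 6.83 and 6.62 in Kuramochi, and 5.56, 4.86 and 5.43 against 6.46, 6.36 and 6.24 in EFO-21. The parental and resistant values did not overlap for either gene in either line, as for every called member. Without parental library 11 the H2AC15 change in EFO-21 fell under 2-fold. H2AC21 read 2.90, 4.07 and 3.44 against 4.27, 4.82 and 4.85 in Kuramochi, where the call was lost without libraries 4, 6, 17 or 18 and in 1 fit of all libraries, and 0.69, 2.25 and 1.88 against 3.70, 3.54 and 3.71 in EFO-21. H2BC3 was called in EFO-21 alone, at 1.62, 2.25 and 2.57 against 4.10, 4.32 and 4.76 (2.25 ± 0.31, limma adjusted p = 0.002). In parental EFO-21 library 10 the values of H2AC21 (0.69) and H2BC3 (1.62) lay under the 10th percentile of that library, 1.80.

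Other H2A and H2B genes were called in opposite directions in different lines. H2AC7 read 6.42 and 5.75 in parental OV-90 against 4.46, 4.79 and 5.12 (-1.30 ± 0.31), and 5.78, 6.27 and 7.05 in parental Kuramochi against 8.81, 8.62 and 8.68 (2.34 ± 0.30). H2AC13 read 6.86 and 6.30 against 5.16, 5.81 and 5.58 in OV-90, and 6.38, 6.83 and 6.62 against 8.57, 8.38 and 8.43 in EFO-21. H2AC14 read 5.08, 4.73 and 4.88 against 3.36, 3.31 and 1.82 in OVSAHO, and 4.92, 4.86 and 4.78 against 6.66, 6.46 and 6.64 in EFO-21. In each of these comparisons the groups did not overlap. The H2AC14 call in OVSAHO was lost without parental library 7 (adjusted p = 0.055 in limma). The OV-90 calls of H2AC7 and H2AC13 were lost without any 1 of resistant libraries 13, 14 or 15. In a fit with no trend the H2AC13 call in OV-90 was also lost (limma adjusted p = 0.051).

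H2BC6 and H2BC10 were weaker rows with the same opposition. H2BC6 read 4.33, 3.92 and 4.39 against 2.75, 2.73 and 3.31 in OVSAHO, and 4.05, 2.91 and 2.05 against 4.51, 4.83 and 4.34 in EFO-21. The groups did not overlap in either line. H2BC10 read 3.39, 3.63 and 3.92 against 0.01, 1.71 and 1.30 in OVSAHO, and 2.45, 0.00 and 0.00 against 2.81, 2.87 and 3.50 in EFO-21. Both EFO-21 calls were lost in turn without parental libraries 11 or 12 or resistant libraries 22, 23 or 24, and held only without parental library 10. In 1 fit of all libraries neither H2BC10 call held (limma adjusted p = 0.082 in OVSAHO and 0.11 in EFO-21). H2AC16 fell in OV-90 from 6.76 and 6.42 to 4.85, 5.07 and 3.98 (-1.95 ± 0.38, limma adjusted p = 0.026), and in OVSAHO from 3.88, 4.57 and 3.82 to 0.01, 0.02 and 0.02, the floor.

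Of the 13 H3 genes, 4 (30.8%) were called lower in OV-90 and 5 (38.5%) in OVSAHO, with none higher. Over all genes 6.56% and 3.83% were called lower in those lines, and 9.5% and 3.93% higher. In each of Kuramochi and EFO-21 3 H3 genes (23.1%) were called higher (all genes, 11.8% and 7.11%). In Kuramochi 6 of the 13 H3 changes were above 0 and 7 below, with a median of 0.00. H3C2 read 4.91, 5.33 and 6.18 against 7.44, 7.62 and 7.49 in Kuramochi (2.04 ± 0.31, limma adjusted p = 0.0026). In EFO-21 it read 5.56, 5.17 and 4.12 against 6.97, 6.92 and 6.66 (1.90 ± 0.37), and in OV-90 6.63 and 5.35 against 4.24, 4.68 and 4.37 (-1.55 ± 0.43). H3C10 was the other H3 gene called higher in both lines, at 5.98, 6.60 and 6.86 against 7.83, 7.56 and 7.70 in Kuramochi and 7.92, 8.22 and 7.86 against 9.35, 9.31 and 9.21 in EFO-21. Without parental library 4 its Kuramochi change fell under 2-fold.

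H3C3 was the 1 member called lower in EFO-21. H3C6 also fell there but under the 2-fold limit (-0.59 ± 0.13, limma adjusted p = 0.014). The EFO-21 values of H3C3 were 2.59, 4.37 and 3.76 against 1.87, 0.77 and 2.07 (-2.0 ± 0.55, limma adjusted p = 0.027). In OVSAHO H3C3 read 4.0, 3.28 and 2.93 against 0.01, 0.02 and 2.41, and in OV-90 7.13 and 6.39 against 5.20, 5.61 and 4.15 (limma adjusted p = 0.052). The EFO-21 call was lost in 1 fit of all libraries (limma adjusted p = 0.055) and when libraries 11, 12, 22 or 23 were left out in turn, and the OVSAHO call without libraries 7, 8, 9, 19 or 20.

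H3C1, H3C11, H3C12 and H3C8 were the other H3 genes named by size or by calls in several lines. H3C11 read 6.49 and 5.63 against 3.41, 3.92 and 4.22 in OV-90 (-2.21 ± 0.38, limma adjusted p = 0.022), the largest called fall in that line, and 3.56, 3.63 and 4.02 against 1.63, 1.71 and 0.02 in OVSAHO. H3C12 read 6.57 and 5.79 against 4.38, 4.10 and 4.73 in OV-90. H3C1 read 6.0 and 5.75 against 4.52, 4.41 and 3.89 in OV-90, and in OVSAHO 2.03, 2.07 and 1.79 against 0.01, 0.02 and 0.02, the floor. Each parental OVSAHO value of H3C1 equalled the most frequent value of its library after the floor. The OVSAHO fall of H3C1 is therefore a difference of deposited values and not a measured fold. H3C8 went opposite ways, at 3.88, 3.06 and 3.30 against 1.63, 0.02 and 0.02 in OVSAHO and 5.73, 5.47 and 5.87 against 6.88, 7.12 and 6.75 in EFO-21. Its EFO-21 call was lost in 1 fit of all libraries (limma adjusted p = 0.28).

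Of the 12 H4 genes, which encode the same H4 protein, 5 (41.7%) were called lower in OV-90 (all genes, 6.56%). In Kuramochi 3 (25%) and in EFO-21 2 (16.7%) were called higher (all genes, 11.8% and 7.11%). No H4 gene was called in OVSAHO, where 3 were higher and 3 lower at an unadjusted limma p under 0.05. H4C5 read 5.97, 6.18 and 6.35 against 8.20, 8.40 and 8.22 in Kuramochi (2.11 ± 0.12, limma adjusted p = 5.5e-05) and 6.21, 6.23 and 5.69 against 7.38, 7.23 and 7.18 in EFO-21 (1.22 ± 0.16). H4C2 had the largest rise in EFO-21, from 1.19, 1.39 and 0.78 to 3.23, 4.17 and 4.21 (2.75 ± 0.33, limma adjusted p = 0.0012). All of its parental EFO-21 values lay under the 10th percentile of their libraries, which was 1.80, 1.86 and 1.81. In OV-90 H4C2 fell from 5.52 and 4.78 to 3.41, 3.42 and 3.89. H4C4 read 5.65 and 5.09 against 3.89, 3.42 and 4.37 in OV-90, and 3.96, 3.75 and 2.74 against 5.53, 5.18 and 5.12 in Kuramochi. Its OV-90 call was lost in 1 fit of all libraries (limma adjusted p = 0.058).

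Of the 4 linker histones, H1-2 and H1-5 gave calls. H1-2 was called in EFO-21, at 12.40, 12.52 and 12.44 against 13.54, 13.62 and 13.76 (1.19 ± 0.07, limma adjusted p = 8.6e-05). Its changes of 0.97 in Kuramochi and 0.98 in OVSAHO lay just under the 2-fold limit with adjusted p-values of 0.0016 and 0.00066. H1-5 fell in OVSAHO from 3.88, 4.18 and 3.30 to 0.01, 0.02 and 0.02, and in OV-90 from 7.26 and 6.0 to 5.07, 4.10 and 4.73 (-1.99 ± 0.49, limma adjusted p = 0.038). In EFO-21 H1-5 read 4.76, 4.57 and 2.88 against 5.61, 5.90 and 5.38 (limma adjusted p = 0.048), a call held only without parental library 10 and lost without libraries 11, 12, 22, 23 or 24.

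Levels could be compared between genes per length only for the 41 members read over 1 feature with no longer annotated transcript. On the scale of the log2 level per kilobase of gene length, averaged over the 8 groups, H2AC18 and H2AC19 stood highest at 11.95 and 11.94, followed by H1-2 at 11.82 and H2BC12L at 9.35. H2BC10 stood lowest at 2.85. The order of H1-2 and the H2AC18 copies changed between groups, from 11.06 against 10.98 in resistant OV-90 to 10.73 against 11.10 in resistant OVSAHO.

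The members with and without a longer annotated transcript were counted apart, because a transcript that runs past the stem-loop can carry a poly(A) tail. A longer transcript was annotated for 18 members and not for 44. In OV-90 16 of the 44 were called lower and none of the 18, while at an unadjusted limma p under 0.05 27 of the 44 and 8 of the 18 were lower. In OVSAHO 12 of the 44 and 1 of the 18 were called lower. In Kuramochi 13 of the 44 and 10 of the 18 were called higher, and in EFO-21 18 of the 44 and 6 of the 18. The median change was -1.46 against -0.51 in OV-90, -0.60 against 0.33 in OVSAHO, 0.62 against 1.21 in Kuramochi and 1.02 against 0.88 in EFO-21 (44 and 18 members). The difference between these sets was not tested. The split followed how the deposited row was made, since 12 of the 18 were marked as robust linear model (rlm) rows and 41 of the 44 as meanlog2 rows. In OV-90 none of 15 rlm and 16 of 47 meanlog2 members were called lower, against 5.16% of all rlm and 11% of all meanlog2 genes. In OVSAHO 1 of 15 and 12 of 47 were called lower, against 3.34% and 5.37%. In Kuramochi 7 of 15 and 16 of 47 were called higher, against 11.7% and 12.1%, and in EFO-21 1 of 15 and 23 of 47, against 5.79% and 11.3%. Transcript length and row type cannot be told apart here.

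**Figure D4:**
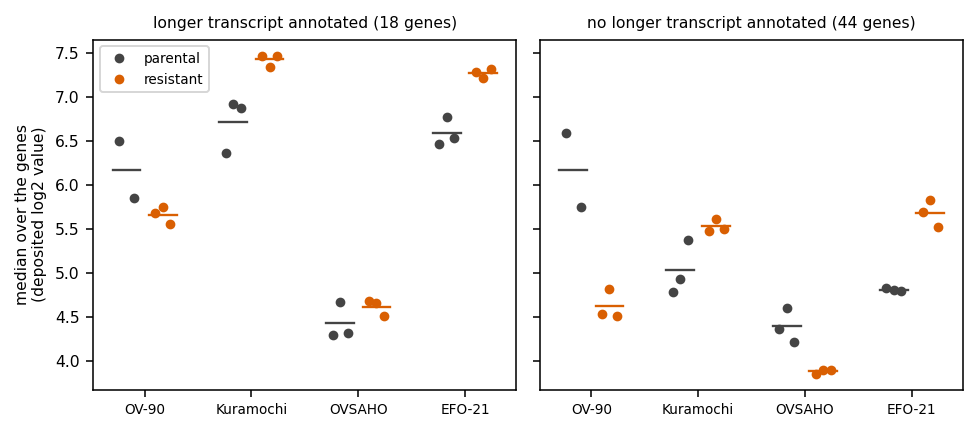
Median deposited log2 value in each library over the 18 histone genes with a longer annotated transcript (left) and the 44 without (right), parental in grey and resistant in orange, with a bar at the group mean. In OVSAHO the parental and resistant points overlap on the left and are apart on the right, and in Kuramochi and EFO-21 the resistant points are higher in both panels.

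Because many H2A and H2B genes share a promoter region, the head-to-head pairs were also read together. There were 10 measured H2A-H2B pairs with starts 170 to 251 bases apart on GRCh37. Both genes of a pair were called higher in 5 pairs in Kuramochi and in none in EFO-21, where 5 pairs had the H2A gene alone called and 4 the H2B gene alone. In EFO-21 all 10 pairs had changes of the same sign, as had all 10 in Kuramochi and OV-90 and 8 in OVSAHO. Most members shared these signs whether paired or not, with 60 of the 62 above 0 in EFO-21, 49 above 0 in Kuramochi and 57 below 0 in OV-90, so the signs are no result about pairs. No pair was called in opposite directions in any line. The H2AC8-H2BC8 pair was called lower together in OVSAHO and higher together in Kuramochi.

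The difference between lines was tested in 1 limma fit of the 23 libraries, as the change in 1 line minus the mean change in the other 3. For OV-90 40 members had a lower change than the other lines and none a higher one (all genes, 9.78% and 11.8%), with 1 higher at an unadjusted limma p under 0.05. For Kuramochi 23 members had a higher change and 1, H4C16, a lower one (all genes, 13.1% and 12.7%). For OVSAHO 12 had a lower change and 2, the near-identical H4C14 and H4C15, a higher one (all genes, 5.03% and 5.72%). For EFO-21 28 had a higher change and none a lower one (all genes, 8.49% and 8.72%), with 1 lower at an unadjusted limma p under 0.05. Without parental OV-90 library 2 the OVSAHO count of lower changes was 19, and H4C16 lost its call without libraries 3, 4, 5, 17 or 18.

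Averaged over the 4 lines with the line as a block, 1 member was called higher and 4 lower. The median change was 0.24, with 42 of the 62 above 0, and at an unadjusted limma p under 0.05 20 were higher and 8 lower. H2BC26 was called higher (1.58 ± 0.43, all genes 2.9%), and H1-5, H3C3, H3C7 and H3C11 were called lower (all genes 3.2%). Their average changes were -1.34 ± 0.49, -1.67 ± 0.43, -1.26 ± 0.47 and -1.64 ± 0.45. All 4 include floor values, so these are differences of deposited values and not measured folds. H1-5 was at the floor in 3 resistant OVSAHO libraries, H3C7 in 3 resistant OV-90 libraries and H3C11 in 3 resistant Kuramochi libraries. H3C3 was at the floor in 2 resistant OVSAHO libraries. In EFO-21 alone H1-5 was called higher. Without parental OV-90 library 2, 5 members were called higher and 2 lower, and without OVSAHO resistant library 19, 2 were called each way. Without any 1 of libraries 6, 7, 8, 9, 13, 14, 15 or 21, 2 were called lower.

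Histone gene levels were also compared between the parental lines, with no refits that left out a library. Against the mean of the other parental lines, 26 members (41.9%) were higher and 1 (1.61%) lower in OV-90 (all genes, 21.2% and 25.1%). That count rests on 2 parental OV-90 libraries, and library 2 exceeded library 3 in 55 of the 62 genes. In OVSAHO 2 (3.23%) were higher and 29 (46.8%) lower (all genes, 19.6% and 19.7%). The counts in the remaining lines were near the all-gene shares. In Kuramochi 14 (22.6%) were higher and 10 (16.1%) lower (all genes, 17.6% and 18.9%). In EFO-21 13 (21%) were higher and 16 (25.8%) lower (all genes, 20% and 21.6%). H2BC8 in parental OVSAHO was lower than the mean of the other lines by a log2 difference of -4.28 ± 0.18, and H2BC12 by -2.83 ± 0.07.

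The factors that make and process histone mRNA were read from a separate list. Of 41 measured genes of histone mRNA transcription, processing and decay, 6 (14.6%) were called higher in OV-90 and none lower, against 9.5% and 6.56% of all genes, and none was called in the other lines. At an unadjusted limma p under 0.05, 17 were higher and 13 lower in OV-90, and 6, 16 and 17 were higher and 11, 3 and 6 lower in Kuramochi, OVSAHO and EFO-21. SLBP, which binds the stem-loop, had changes of 0.18, 0.48, 0.34 and 0.40 in OV-90, Kuramochi, OVSAHO and EFO-21, all below the 2-fold limit. In Kuramochi its values were 8.20, 8.51 and 8.54 against 8.86, 8.90 and 8.91 (limma adjusted p = 0.0096).

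NPAT, the coactivator of histone gene transcription, rose in OV-90 from 4.06 and 4.80 to 5.56, 5.68 and 5.67 (1.21 ± 0.26, limma adjusted p = 0.031), and changed by -0.74, 0.60 and 0.44 in Kuramochi, OVSAHO and EFO-21. CASP8AP2 (FLASH), an NPAT partner needed for 3′ processing, rose in OV-90 from 3.75 and 4.21 to 5.66, 5.63 and 5.77 (1.70 ± 0.21, limma adjusted p = 0.013). SMG1, a kinase of RNA decay, had the largest rise of this list in OV-90, 1.82 ± 0.27. The OV-90 calls of NPAT, CASP8AP2 and SMG1 rest on 2 parental libraries and were not rechecked with a library left out. ZNF473 and the U7 snRNP proteins LSM10 and LSM11 were called in no line, with changes of 0.97, -0.48 and -0.32 in OV-90. Their changes in the other lines lay between -0.62 and 0.18.

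Histone chaperones and S phase genes were read in the same way. Of 32 chaperone and supply genes, 2 (6.25%) were called higher and none lower in OV-90, ATRX and UBN1 (all genes, 9.5% and 6.56%). In Kuramochi 1 (3.12%) was higher, ATRX, and 1 (3.12%) lower, the importin IPO4 (all genes, 11.8% and 10.6%). In OVSAHO none was called (all genes, 3.93% and 3.83%). In EFO-21 1 (3.12%) was higher and none lower, the H3-H4 chaperone ASF1B (1.03 ± 0.03, all genes, 7.11% and 7.15%). Of 39 S phase genes, 8 (20.5%) were called higher and 1 (2.56%) lower in OV-90, against 9.5% and 6.56% of all genes. Their median change in OV-90 was 0.09. In each of Kuramochi (E2F2) and EFO-21 (CCNA2) 1 S phase gene (2.56%) was called lower and none higher. Over all genes 10.6% and 7.15% were called lower in those lines, and 11.8% and 7.11% higher. No S phase gene was called in OVSAHO (all genes, 3.93% and 3.83%). At an unadjusted limma p under 0.05, 13 chaperone genes were higher and 7 lower in OV-90, and 5 and 15 in Kuramochi. In OVSAHO 14 chaperone genes were higher and 4 lower at that p, and in EFO-21 16 and 5. Of the S phase genes 14 were higher and 10 lower in OV-90, 12 and 9 in Kuramochi, and 30 and 1 in OVSAHO. In EFO-21 31 S phase genes were higher and 2 lower at that p, with a median change of 0.42, beside a median of 0.92 for the histone genes. TOP2A and MKI67 had the largest S phase rises in OV-90, 1.62 ± 0.41 and 1.43 ± 0.38 (limma adjusted p = 0.04 and 0.043). The SD between the 2 parental OV-90 libraries was 0.96 and 0.80 for these genes. Their calls were not rechecked with a library left out.

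The replication-independent variants are mostly made from polyadenylated mRNAs outside S phase as well, but the mRNA ends of the listed genes were not examined. Of 17 measured, 3 were called lower in OV-90, 6 higher and 3 lower in Kuramochi, 1 lower in OVSAHO and 2 higher and 4 lower in EFO-21. The share called lower was 17.6% in OV-90 (all genes, 6.56%) and 23.5% in EFO-21 (all genes, 7.15%), and in Kuramochi 35.3% were higher and 17.6% lower (all genes, 11.8% and 10.6%). H2AX, the DNA damage variant, fell in Kuramochi by 1.29 on the log2 scale. H2AJ, an H2A variant, fell in OVSAHO by 2.42. H2AB1, a short H2A variant at the floor in parental Kuramochi, had the largest rise there, and H1-6, a testis variant, the largest fall in OV-90 (-3.26 ± 0.84).

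Other protein-coding genes near the members were read for comparison of position. Of 16 measured non-members within the chromosome 6 span, 1 (6.25%) was called higher and 1 (6.25%) lower in OV-90 (all genes, 9.5% and 6.56%). In Kuramochi 4 (25%) were higher and 1 (6.25%) lower (all genes, 11.8% and 10.6%). In OVSAHO 1 (6.25%) was higher (all genes, 3.93%). None was called in EFO-21 (all genes, 7.11% and 7.15%). At an unadjusted limma p under 0.05, none was higher and 8 were lower there. These non-members include the variant histone H1-6, which gave the OV-90 fall and the largest called rise in Kuramochi. The 30 within 500 kb of the chromosome 1 members include H3-4, also in the variant list, which had their largest called rise in EFO-21. Of the 30, 1 (3.33%) was called higher and 9 (30%) lower in Kuramochi (all genes, 11.8% and 10.6%). In OV-90 4 (13.3%) were higher and 1 (3.33%) lower (all genes, 9.5% and 6.56%). In OVSAHO 1 (3.33%) was called each way (all genes, 3.93% and 3.83%). In EFO-21 2 (6.67%) were higher and 1 (3.33%) lower (all genes, 7.11% and 7.15%). The largest of these changes was SV2A, lower in Kuramochi by a log2 change of -4.55 ± 0.19.

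Other RNAs that normally end without a poly(A) tail were measured in the same libraries. This group of 12 (RN7SK, RN7SL1, RN7SL2, RMRP, RPPH1, TERC, RNU7-1, RNU4ATAC, RNU6ATAC, RNU11, SNORD3A and SCARNA2) was chosen after its values were seen, and its part in the histone values was not tested. Their median change was -0.91 in OV-90, -0.87 in Kuramochi, -0.35 in OVSAHO and -0.71 in EFO-21, lower in all 4 lines, while the member median was higher in Kuramochi and EFO-21. RNU7-1, the RNA of the U7 snRNP, read 5.91, 6.65 and 6.01 against 5.13, 5.37 and 6.10 in Kuramochi, and its changes in the 4 lines lay between -0.66 and 0.20.

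The epithelial markers EPCAM, KRT8, KRT18, KRT19, PAX8 and CDH1 were all above the bottom 10% of values in every group except for CDH1 in resistant Kuramochi. The log2 of the summed level was 10.63 to 14.53 for the epithelial list. It was 5.06 to 7.76 for 4 leukocyte, 2.48 to 10.08 for 3 endothelial and 5.79 to 8.65 for 4 fibroblast markers, and the endothelial list was highest in EFO-21, at 9.80 to 9.88 in parental and 9.96 to 10.08 in resistant libraries.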

How the data were processed

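RNA from 23 cultures of 4 ovarian cancer lines was sequenced as 150-base paired-end poly(A)-selected stranded libraries. The authors aligned reads to GRCh37/hg19 with GSNP, summed exon reads over assays, summarized exons and junctions per gene, and deposited quantile-normalized log2 values, 1 per gene and library. The file marks 16448 rows as robust linear model (rlm) summaries and 5210 as meanlog2, and of the 62 members 15 are rlm and 47 meanlog2. No counts accompany them here, so depth is unknown and no counting intervals are given.

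Groups came from the sample titles, and genes from NCBI Gene identifiers. limma 3.58.1 in R 4.3.3 (lmFit, eBayes with trend, two-sided) was fitted to each line, with Benjamini-Hochberg adjustment over 21658 genes. Calls needed an adjusted p under 0.05 and at least a 2-fold change. Further fits of all 23 libraries gave the change averaged over lines, the difference between lines and the parental contrasts. On simulated data with 200 genes changed by 2 log2 units, 55, 77, 85.5 and 78% were recovered in OV-90, Kuramochi, OVSAHO and EFO-21. Exact permutation of 3 against 3 or 2 against 3 libraries cannot give a two-sided p below 0.1, so none was used. The p-values measure the spread between libraries of a group, labelled biological replicates.

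Members described by library were the 4 largest called rises and falls per line without overlap, those called the same way in 2 or more lines, and those called in opposite directions. H2AC25, H1-2, H3C6, H3C7 and H4C16 were added after their values were seen. The members and lists were chosen with earlier results of these data known. Alternatives were 1 fit of all libraries, no trend, removal of weakly expressed genes, recentring, other fold thresholds, near-identical copies counted once and each library left out.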

Additional observations from a re-analysis of the deposited data

Results flagged for a closer look

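The changes differed between lines by limma's test of 1 line against the mean of the other 3, with Benjamini-Hochberg adjustment over all genes. In OV-90 the change was higher for 0 members (1 at an unadjusted limma p under 0.05) and lower for 40, led by H3C12 at -2.95 ± 0.75 (adjusted p = 0.0032) and H2AC21 at -2.73 ± 0.65 (adjusted p = 0.002). In Kuramochi it was higher for 23 and lower for 1, led by H2BC8 at 3.77 ± 0.25 (adjusted p = 5.3e-10) and H2AC8 at 3.65 ± 0.64 (adjusted p = 9.8e-05). In OVSAHO it was higher for 2 and lower for 12, led by H2AC8 at -3.97 ± 0.64 (adjusted p = 0.00012) and H2AC16 at -3.83 ± 0.42 (adjusted p = 1.9e-06). In EFO-21 it was higher for 28 and lower for 0 (1 at an unadjusted limma p under 0.05), led by H1-5 at 3.90 ± 0.57 (adjusted p = 2.6e-05) and H2BC10 at 3.69 ± 1.26 (adjusted p = 0.025). These are differences of deposited values and not measured folds where libraries were at the floor: H2AC16, H1-5 and H2BC8 in all 3 resistant OVSAHO libraries, H2AC8 in 1 of them, H3C12 in 1 parental Kuramochi library, and H2BC10 in 2 parental EFO-21 libraries and in libraries of each other line. The OVSAHO values enter every other line's difference.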

How the results depend on the processing

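None of the 59 named calls that were refitted reversed its direction. H2AC25, H1-2 and the genes of the other lists were not among them. Counts moved by more than 1.5 times with the fold threshold, as follows. At 1.5-fold, 1 member was higher in OV-90, 5 were higher in OVSAHO and 2 lower in EFO-21. With no fold threshold these counts were 1, 7 and 2, with 2 lower in Kuramochi and 42 higher in EFO-21. In 1 fit of all libraries 2 were lower in Kuramochi and 0 in EFO-21. With weakly expressed genes left out 1 was lower in OVSAHO and 0 in EFO-21, because the members called lower there were no longer tested.

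With 1 library left out at a time, members higher and lower were 0 to 1 and 0 to 33 in OV-90, 20 to 25 and 0 to 2 in Kuramochi, 1 to 5 and 8 to 13 in OVSAHO, and 19 to 24 and 0 to 1 in EFO-21. The medians were -1.58 to -0.61, 0.64 to 0.93, -0.24 to -0.13 and 0.92 to 1.03. Averaged over lines, 1 to 5 were higher and 2 to 5 lower. For the difference between lines the ranges were 0 and 28 to 46 in OV-90, 17 to 30 and 0 to 1 in Kuramochi, 2 and 10 to 19 in OVSAHO, and 21 to 33 and 0 in EFO-21. The leave-one-out values of the medians, average and differences were added after seeing the data.

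Of 520 refits of 59 named calls, 426 kept the call and 94 lost it. With no trend 7 of the 59 calls were lost, and in 1 fit of all libraries 6. The call held without any 1 library for 0 of 11 named members in OV-90, 13 of 15 in Kuramochi, 9 of 12 in OVSAHO and 14 of 21 in EFO-21. The cause was not tested. No paired analysis was possible because the table's columns carry library numbers and not the replicate numbers of the labels. Read depth is unknown, so its limit on weakly expressed members cannot be given.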
